A study of Homo sapiens with 12 samples.

Results

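The response of OVSAHO cells to lestaurtinib was read from 6 RNA sequencing libraries of the 12 in the series, picked by the cell line and treatment in the sample labels. OVSAHO is an established line labelled as high-grade serous ovarian cancer with a WT genotype. Its 3 treated libraries came from cells given 500 nM lestaurtinib for 24 h and its 3 control libraries from cells given DMSO, the vehicle, for the same time. All cells were grown in phenol red-free medium with serum, per the labels' protocols. The other 6 libraries hold the same treatments of MDAH-2774, a WT line labelled as endometrioid ovarian cancer, and enter below only where the responses of the lines are set against each other. A single line is a model of 1 tumour, and the labels do not call the replicates separate cultures, so every p-value rests on differences between libraries that may be technical only.

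Lestaurtinib is an indolocarbazole that occupies the ATP site of many kinases and is best known as an inhibitor of FLT3, JAK2 and the TRK receptors. JAK kinases carry interferon and cytokine signals to STAT transcription factors, which switch on antiviral genes through the interferon-stimulated response element (ISRE) of their promoters. Cyclic AMP signals reach the nucleus through protein kinase A and CREB, which binds the cAMP response element (CRE). The load of unfolded protein in the endoplasmic reticulum (ER) reaches chaperone genes through ATF6 and XBP1 and the ER stress response element (ERSE).

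Levels are in CPM, the counts of a gene scaled to a common library size, the TMM-adjusted total, given per library or as mean ± SD (n = 3 per group). Total counts were 32875940 to 41768581 per lestaurtinib library and 40039225 to 55941446 per vehicle library. On the first principal component of the 500 most variable genes, which held 57% of the variance, the lestaurtinib libraries lay at -18.9 to -12.9 and the vehicle libraries at 10.6 to 23.3. Lestaurtinib replicate 1 and vehicle replicate 3 lay at 7.5 and 14.8 on the second component (16.9% of the variance), and the other 4 libraries between -10.2 and -0.71. Most calls lost without a single library are therefore given where the gene is named. Genes under the threshold that passed without a library are given in the last section. The line carried epithelial and serous markers: 17 of 18 listed genes were measured, at a summed 3560 to 3780 CPM with lestaurtinib and 2650 to 2940 CPM with vehicle, among them PAX8 (235 ± 10.3 CPM with lestaurtinib and 274 ± 19.4 CPM with vehicle) and WT1 (60.5 ± 3.36 CPM with lestaurtinib and 87.6 ± 1.47 CPM with vehicle). The keratin genes KRT8, KRT18 and KRT7 stood highest with lestaurtinib, at 1320, 697 and 420 CPM, against 813, 330 and 242 CPM with vehicle. These and MSLN were the 4 markers that rose, and PAX8, WT1, EMX2 and WFDC2 the 4 that fell. Of markers of other cell types, 2 of 9 fibroblast genes, 1 of 10 blood genes and 1 of 6 endothelial genes were in the table, with summed levels of 0.746 to 1.33 CPM with lestaurtinib and 0.682 to 1.82 CPM with vehicle for fibroblasts. The blood gene, CD68 (a lysosomal protein), was at 10.6 ± 1.86 CPM with lestaurtinib and 14.7 ± 0.535 CPM with vehicle, and the endothelial gene, CDH5 (the cadherin of vessel walls), at 1.56 ± 0.391 CPM with lestaurtinib and 0.130 ± 0.166 CPM with vehicle. CDH5 rose and CD68 fell, though the CD68 call was not held without lestaurtinib replicate 1 or 2 or any 1 vehicle library (edgeR adjusted p from 0.054 to 0.13), and their part in the results below was not tested. In bulk RNA, fewer cells of a kind and less RNA per cell cannot be told apart.

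Changes are given as the log2 ratio of lestaurtinib to vehicle ± SE, and adjusted p-values come from edgeR's quasi-likelihood test with Benjamini-Hochberg adjustment over all 13498 genes tested. A gene is said to have risen or fallen only where that p was under 0.05, which 2124 genes, 15.7%, reached. Among the 12347 genes that averaged 1 CPM or more over the 6 libraries, 9.69% rose and 6.88% fell, and the median change of all of them was 0.00. The changes were mostly small: 87.5% of the 2046 calls at that level were under 1 on the log2 scale, with a median of 0.44 for genes that rose and -0.47 for genes that fell. The count of 1241 genes that rose, at any level, was 746 without lestaurtinib replicate 3 and 799 without vehicle replicate 3, while the count of 883 that fell stayed between 704 and 960 without any 1 library. Scaling to the upper quartile, which moved the median change by -0.04, turned the split of 1241 higher and 883 lower into 999 higher and 1173 lower. Gene positions are the outermost exon ends in the authors' deposited table (hg38). Gene lists are described below by their members with at least 1 CPM, and their counts are to be read against the shares of 9.69% and 6.88%. All lists were drawn up with earlier results of these data known, so their directions are no independent evidence.

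**Figure D1:**
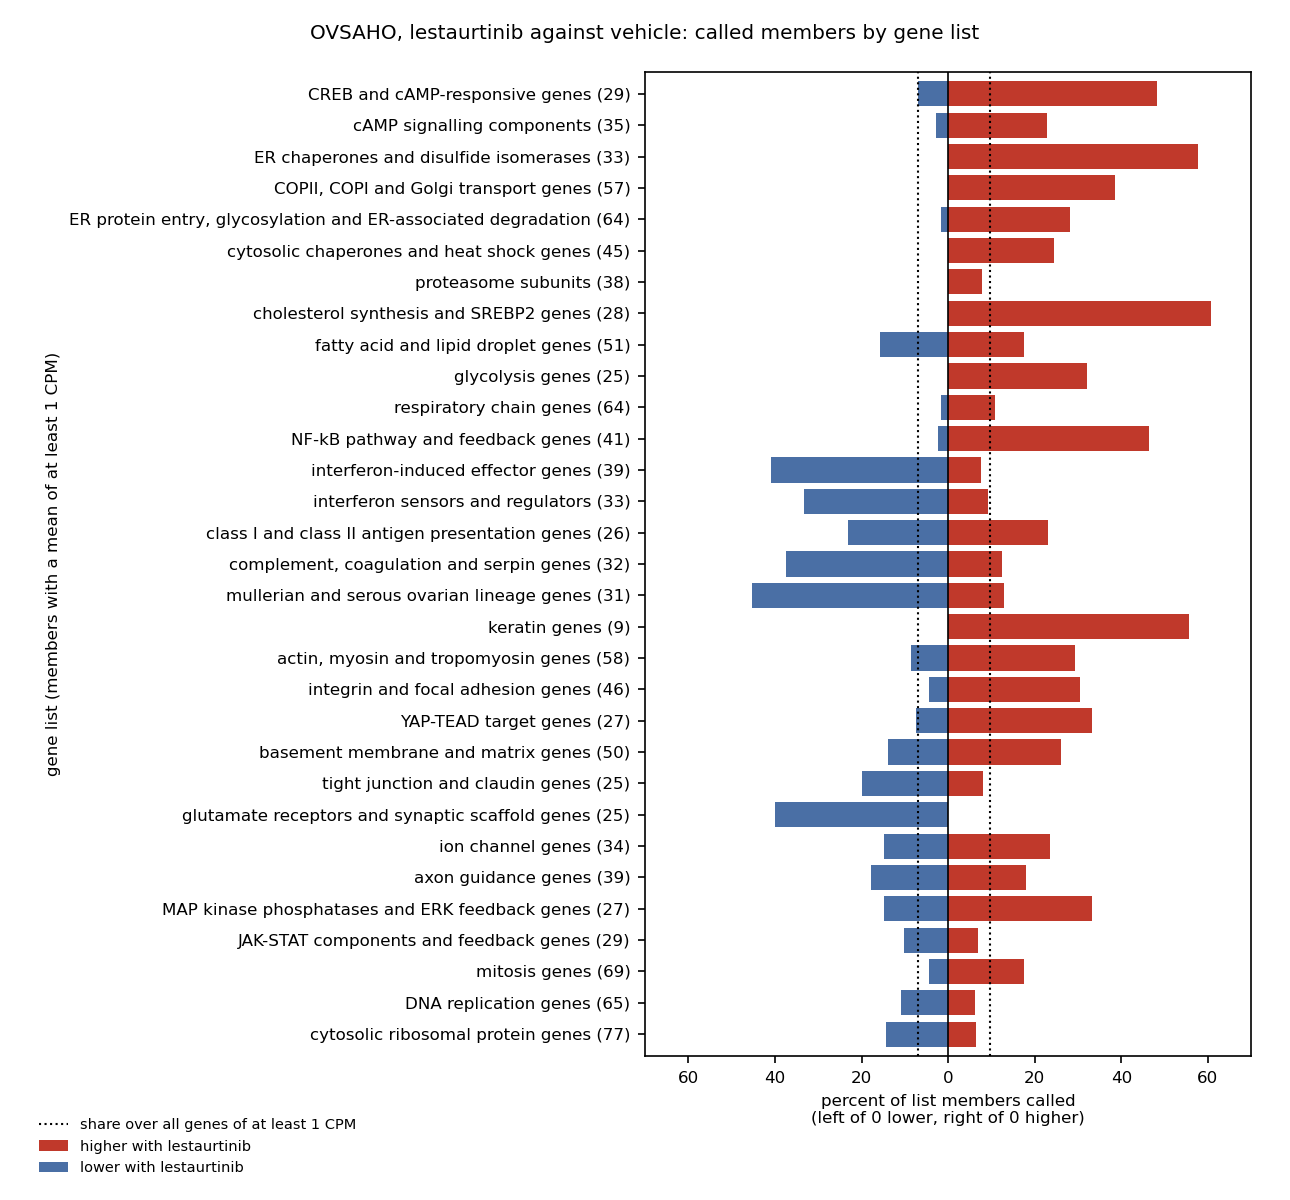
Share of members of 31 gene lists that rose (bars to the right) or fell (bars to the left) with lestaurtinib in OVSAHO, in percent of members with a mean of at least 1 CPM, whose number stands in brackets. Dotted lines mark the shares over all genes of that level, 9.69% higher and 6.88% lower. The longest bars to the right belong to the CREB, ER chaperone, transport, cholesterol, NF-kB and keratin lists, and the longest to the left to the interferon, complement, lineage and synaptic lists. Other lists also lie beyond the right line, among them YAP-TEAD, MAP kinase feedback, glycolysis, integrin, actin and ER entry, at 28.1% to 33.3%.

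Genes known to answer cyclic AMP rose in number and by large amounts. Of 29 measured CREB and cAMP-responsive genes, 14 rose and 2 fell, with a median change of 0.68 (with any 1 library left out, 12 to 14 rose and 1 to 2 fell, the number that fell being 1 without lestaurtinib replicate 1 or 2 or vehicle replicate 1 or 3). SST, the gene of the inhibitory peptide somatostatin, was at 206, 221 and 265 CPM in the lestaurtinib libraries, against 40.9, 44.7 and 44.2 CPM in the vehicle libraries. DUSP1, a phosphatase that switches off MAP kinases, was at 68.4, 74.7 and 83.5 CPM in the lestaurtinib libraries, against 12.6, 12.5 and 15.04 CPM in the vehicle libraries. The groups were well apart in both genes, with the lowest lestaurtinib library several times above the highest vehicle library. Both were named for a low adjusted p, so a separation of the groups is favoured by the choice. CGA, the common alpha subunit of pituitary and placental glycoprotein hormones, was at 15.2, 18.6 and 17.5 CPM in the lestaurtinib libraries, against 0.944, 0.780 and 0.290 CPM in the vehicle libraries, so that it was near the floor of the measurement in all vehicle libraries.

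The next members in size were signalling genes. AKAP12 (chromosome 6, 151239999 to 151358559), a scaffold that ties protein kinase A to the membrane, was at 283 ± 11.8 CPM with lestaurtinib and 109 ± 2.48 CPM with vehicle, and SIK1, a kinase that restrains CREB coactivators, at 28.7 ± 2.88 CPM with lestaurtinib and 11.3 ± 0.0868 CPM with vehicle. PDE4D (chromosome 5, 58969038 to 60522120), which breaks down cAMP, was at 33.3 ± 0.578 CPM with lestaurtinib and 11.2 ± 2.45 CPM with vehicle, a change of 1.57 ± 0.14 (edgeR adjusted p = 8.2e-07). RGS2, which damps G protein signals, changed by 2.04 ± 0.27. BDNF, a neurotrophin, rose by 1.45 on the log2 scale, the nuclear receptor gene NR4A1 by 1.33, the clock gene PER1 by 1.16 and CREM, whose short form represses CREB targets, by 0.70. Several classical early targets did not pass: EGR1 was at 0.68 ± 0.23, JUNB at 0.53 ± 0.25 and PPARGC1A at -0.25 ± 0.27. PCK1, the gluconeogenic enzyme gene that cAMP raises in liver, went the other way, at 32.8 ± 3.49 CPM with lestaurtinib and 51.9 ± 4.28 CPM with vehicle (-0.66 ± 0.13). FOS, an early AP-1 gene, rose by 1.19 (edgeR adjusted p = 0.032), but not without lestaurtinib replicate 2 (0.071) or 3 (0.15) or vehicle replicate 2 (0.11) or 3 (0.096).

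**Figure D2:**
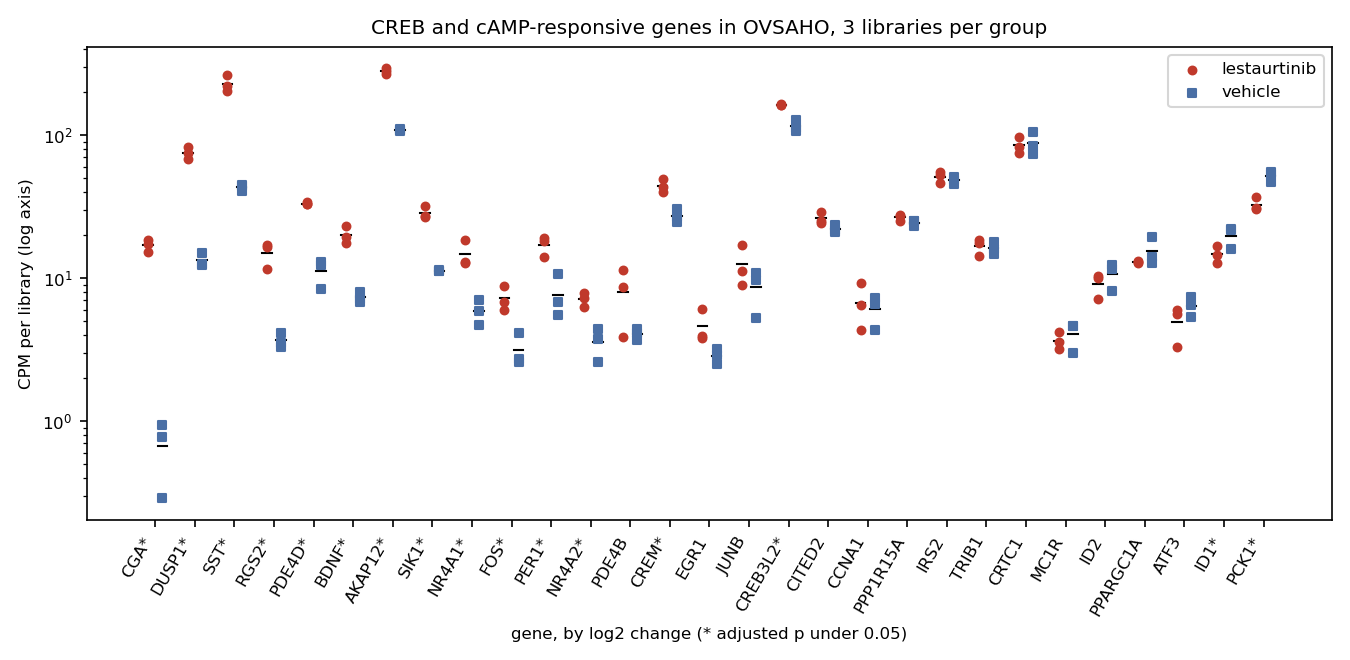
CPM in each OVSAHO library (log axis) of the 29 CREB and cAMP-responsive genes with at least 1 CPM, lestaurtinib libraries (circles) left of vehicle libraries (squares) for each gene, with group means as lines. The genes are ordered by log2 change and asterisks mark those past the threshold. CGA, at the left end, stands lowest in vehicle cells, at 0.290 to 0.944 CPM, and SST and DUSP1 show the groups well apart.

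The machinery that makes and reads cAMP changed in fewer members. Among 35 cAMP signalling components, 8 rose and 1 fell, with a median of 0.02 (with any 1 library left out, 6 to 7 rose and 0 to 2 fell, the number that fell being 0 without lestaurtinib replicate 1 or 3 and 2 without vehicle replicate 1 or 3). Besides AKAP12 and PDE4D, the members that rose included the inhibitory G protein gene GNAI1 (117 ± 9.45 CPM with lestaurtinib and 68.5 ± 6.41 CPM with vehicle), the regulatory subunit gene PRKAR1A (0.32) and the adenylyl cyclase gene ADCY9 (0.58). The catalytic subunit genes PRKACA and PRKACB were at -0.03 ± 0.07 and -0.06 ± 0.09, and CREB1 itself at -0.17 ± 0.08, none past the threshold.

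Promoter sequence was read as a description, and no test was run on it. The 8 bases TGACGTCA, the full palindromic CRE, were searched on both strands from 250 bases before to 50 after the start of transcription, in RefSeq promoters on GRCh38.p14 matched by gene ID to 10736 of the 13498 genes tested. They were found in 346 promoters, 3.22%. Among genes with at least 1 CPM and a promoter in the table, 44 of 984 that rose (4.47%), 11 of 682 that fell (1.61%) and 280 of 8406 that did not pass (3.33%) held the motif. In the CREB and cAMP-responsive list, DUSP1, CGA, SST and CREB3L2 held the motif and rose, and PPP1R15A held it and did not pass (0.13). The other listed genes that rose, among them AKAP12, PDE4D and SIK1, had no match or no promoter in the table. Of the 30 largest increases defined further on, 22 had a promoter in the table and 5 held the motif: CGA, SST, DUSP1, DAAM2 and AVPI1. None of the 22 promoters matched among the 30 largest decreases held it. These sets were picked for their change in these data, and CGA, SST and DUSP1 are also members of the CREB list. A match is a run of letters and not a measured binding site. For the 5 genes among the largest increases, the stretches of 100 bases around the match are shown 5′ to 3′ on the gene's strand, with the CRE in capitals. All of these stretches lie before the RefSeq start of transcription. They come from chr6:87095195-87095294 for CGA, chr3:187670395-187670494 for SST and chr5:172771267-172771366 for DUSP1 (all on the minus strand), from chr6:39792259-39792358 on the plus strand for DAAM2 and from chr10:97687392-97687491 on the minus strand for AVPI1. The RefSeq start can differ from the end of the gene span in the deposited table. Of the 12 stretches printed for this motif and those that follow, 6 run into that span, by 19 bases for SST, 37 for HSPA5, 16 for IFIT1 and 77 for IFIT3, and over all 100 for ISG20 and TAP1.
CGA: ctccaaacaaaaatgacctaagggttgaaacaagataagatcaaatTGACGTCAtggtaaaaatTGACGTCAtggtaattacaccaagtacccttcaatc
SST: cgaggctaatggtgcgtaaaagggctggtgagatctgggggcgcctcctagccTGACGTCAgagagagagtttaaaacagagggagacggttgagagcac
DUSP1: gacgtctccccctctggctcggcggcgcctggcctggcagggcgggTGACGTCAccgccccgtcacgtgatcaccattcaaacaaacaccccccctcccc
DAAM2: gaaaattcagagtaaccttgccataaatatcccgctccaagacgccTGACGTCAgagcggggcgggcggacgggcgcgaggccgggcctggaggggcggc
AVPI1: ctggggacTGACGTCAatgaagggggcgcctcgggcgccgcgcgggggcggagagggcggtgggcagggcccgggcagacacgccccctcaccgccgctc
CGA carried the motif as a pair of copies, whose ends lay 134 and 116 bases before the RefSeq start. The single copies ended 39 bases before it in SST, 117 in DUSP1, 63 in DAAM2 and 234 in AVPI1.

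Genes were ranked by the size of their change among called genes that averaged 5 CPM or more and showed no overlap between the 3 lestaurtinib and the 3 vehicle libraries, a set of 1069 genes that rose and 748 that fell. Ranks 1 to 10 upward were CGA, TESC, TCIM, PEG10, SLC14A2, DUSP1, MPZL2, SST, HPD and SRGN, and downward SLC26A7, CRISPLD2, ALDH1A1, GRIN2A, GRIK2, TNFSF10, CTNNA2, BBOX1, GALNT3 and DLGAP3. Ranks 11 to 30 in each direction are described here. Since the rule asked for groups without overlap, that feature is part of the choice and not a finding.

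Ranks 11 to 30 upward ran from DAAM2 at 2.19 ± 0.11 to PDE4D at 1.57 ± 0.14. Several encode regulators of the cytoskeleton. DAAM2 (chromosome 6, 39792366 to 39904877), a formin that nucleates actin and takes part in WNT signalling, was at 218, 212 and 234 CPM in the lestaurtinib libraries, against 48.3, 48.8 and 48.6 CPM in the vehicle libraries. Of its exon length, 16.5% is shared with genes on the opposite strand (DAAM2-AS1 and MOCS1), and the labels do not state whether the counting used strand. RHOB (chromosome 2, 20447071 to 20449445), a small GTPase of endosomes, was at 99.5, 103 and 122 CPM in the lestaurtinib libraries, against 24.7, 19.1 and 28.2 CPM in the vehicle libraries. CCN2, a matricellular growth factor, was at 28.0 ± 4.09 CPM with lestaurtinib and 8.75 ± 1.54 CPM with vehicle, and MYLK3, a myosin light chain kinase best known from heart muscle, at 13.2 ± 0.602 CPM with lestaurtinib and 4.19 ± 0.619 CPM with vehicle. TNNC1, a troponin C of slow and cardiac muscle, had a change of 1.86 ± 0.48, with an adjusted p of 0.013 in edgeR that was 0.051 without lestaurtinib replicate 1 and 0.2 in DESeq2.

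Membrane and transport genes formed another part of these ranks. KCNJ16 (chromosome 17, 70075225 to 70135608), the inward rectifier potassium channel Kir5.1, was at 36.7, 49.2 and 40.8 CPM in the lestaurtinib libraries, against 9.89, 8.65 and 10.7 CPM in the vehicle libraries. SLC7A8, an exchanger of neutral amino acids, was at 20.96 ± 3.44 CPM with lestaurtinib and 6.85 ± 1.02 CPM with vehicle, UPK1B, a uroplakin of the bladder lining, at 23.9 ± 1.35 CPM with lestaurtinib and 8.01 ± 0.585 CPM with vehicle, and MEGF9, a membrane protein with EGF-like repeats, at 37.5 ± 3.64 CPM with lestaurtinib and 10.4 ± 0.898 CPM with vehicle. RBP2, a cellular retinol-binding protein, was at 60.1 ± 4.49 CPM with lestaurtinib and 18.04 ± 2.29 CPM with vehicle. AVPI1, named for its induction by vasopressin, was at 48.9, 53.5 and 51.7 CPM in the lestaurtinib libraries, against 17.7, 16.01 and 17.9 CPM in the vehicle libraries, 3 values in each group that lay close together.

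Immune and nuclear genes made up much of the rest. ISG20, a 3′ to 5′ exonuclease induced by interferon, was at 10.9, 9.95 and 12.8 CPM in the lestaurtinib libraries, against 3.15, 1.90 and 3.06 CPM in the vehicle libraries. LTB, the lymphotoxin beta chain of the TNF family, changed by 2.05 ± 0.37, with vehicle libraries spread from 2.12 to 6.03 CPM. ZBED2, a zinc finger transcription factor, changed by 1.79 ± 0.15, and PHLDA1, a feedback gene of growth factor signalling, by 1.78 ± 0.15. RBM10 (chromosome X, 47145218 to 47186815), an RNA-binding regulator of splicing, was at 371, 352 and 408 CPM in the lestaurtinib libraries, against 125, 97.3 and 115 CPM in the vehicle libraries. TGM2, the tissue transglutaminase that cross-links proteins, stood out among these ranks for its read number, at 1899.7, 1969 and 1999 CPM in the lestaurtinib libraries, against 657, 578 and 633 CPM in the vehicle libraries, a change of 1.65 ± 0.05 (edgeR adjusted p = 3.5e-13). PKDCC, a secreted tyrosine kinase, was at 93.8 ± 9.65 CPM with lestaurtinib and 30.2 ± 6.97 CPM with vehicle.

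Ranks 11 to 30 downward ran from PLAAT4 at -1.85 ± 0.48 to C4A at -1.33 ± 0.27. Receptors and enzymes of G protein and cyclic nucleotide signalling were among them. ADCYAP1R1 (chromosome 7, 31052341 to 31111479), the PACAP receptor that raises cAMP, was at 2.76, 2.76 and 2.58 CPM in the lestaurtinib libraries, against 8.44, 8.89 and 10.0 CPM in the vehicle libraries. PDE11A, a phosphodiesterase of cAMP and cGMP, was at 4.51, 3.74 and 4.59 CPM in the lestaurtinib libraries, against 14.6, 13.4 and 15.4 CPM in the vehicle libraries. LPAR3, a lysophosphatidic acid receptor, was at 8.89 ± 0.384 CPM with lestaurtinib and 28.5 ± 3.05 CPM with vehicle and RGS9, a regulator of G protein signals, at 3.08 ± 1.32 CPM with lestaurtinib and 10.8 ± 1.43 CPM with vehicle. The call of LPAR3 (edgeR adjusted p = 0.02) was lost without lestaurtinib replicate 2 or 3 or vehicle replicate 2 or 3, with adjusted p from 0.055 to 0.063, and in DESeq2 (0.34).

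Other members of these ranks act in stress signalling, cell death and growth. DUSP10, a phosphatase of the kinases JNK and p38, was at 4.25, 5.62 and 2.84 CPM in the lestaurtinib libraries, against 12.4, 13.3 and 14.04 CPM in the vehicle libraries, the opposite direction to DUSP1. BMF, a death-promoting BH3-only protein of the BCL2 family, was at 3.70, 5.10 and 6.52 CPM in the lestaurtinib libraries, against 15.3, 14.5 and 12.8 CPM in the vehicle libraries. GDF11, a secreted TGF-beta family factor, was at 47.5, 54.6 and 58.2 CPM in the lestaurtinib libraries, against 143, 147 and 151 CPM in the vehicle libraries. YPEL2 (chromosome 17, 59331692 to 59401734) was at 10.8, 10.8 and 12.6 CPM in the lestaurtinib libraries, against 42.6, 38.2 and 40.8 CPM in the vehicle libraries. SAMHD1, which degrades deoxynucleotides and restricts viruses, was at 36.6, 41.1 and 48.2 CPM in the lestaurtinib libraries, against 107, 109.9 and 101 CPM in the vehicle libraries, with 26.0% of its exon length shared with the opposite-strand gene TLDC2. PLAAT4, a phospholipid-modifying enzyme induced by retinoids, had an edgeR adjusted p of 0.014 and lost its call without lestaurtinib replicate 2 (adjusted p = 0.059).

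Matrix and surface genes completed the downward ranks. SULF1, which trims heparan sulfate, was at 22.0 ± 3.20 CPM with lestaurtinib and 74.0 ± 8.01 CPM with vehicle, and LAMA1, the laminin alpha chain of early basement membranes, at 6.77 ± 1.60 CPM with lestaurtinib and 19.1 ± 0.559 CPM with vehicle. MUC1, the epithelial mucin, was at 20.2, 14.1 and 15.4 CPM in the lestaurtinib libraries, against 42.3, 42.1 and 40.8 CPM in the vehicle libraries. DOC2B, a calcium sensor of vesicle release, was at 52.8 ± 4.99 CPM with lestaurtinib and 134 ± 4.47 CPM with vehicle, and the actin nucleator gene LMOD1 at 18.6 ± 3.22 CPM with lestaurtinib and 48.2 ± 4.17 CPM with vehicle. LMOD1 passed in edgeR (adjusted p = 0.0025) and not in DESeq2 (0.27). CCDC146, TMEM26 and DAPL1 changed by -1.38 ± 0.26, -1.49 ± 0.21 and -1.47 ± 0.25. ESPN, an actin bundler of microvilli, changed by -1.47 ± 0.41 but lost its call without lestaurtinib replicate 2 or 3 or vehicle replicate 1 or 3 (edgeR adjusted p from 0.052 to 0.079). C4A, a complement component, and its near-identical copy C4B share reads, so the split of counts between them is uncertain.

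**Figure D3:**
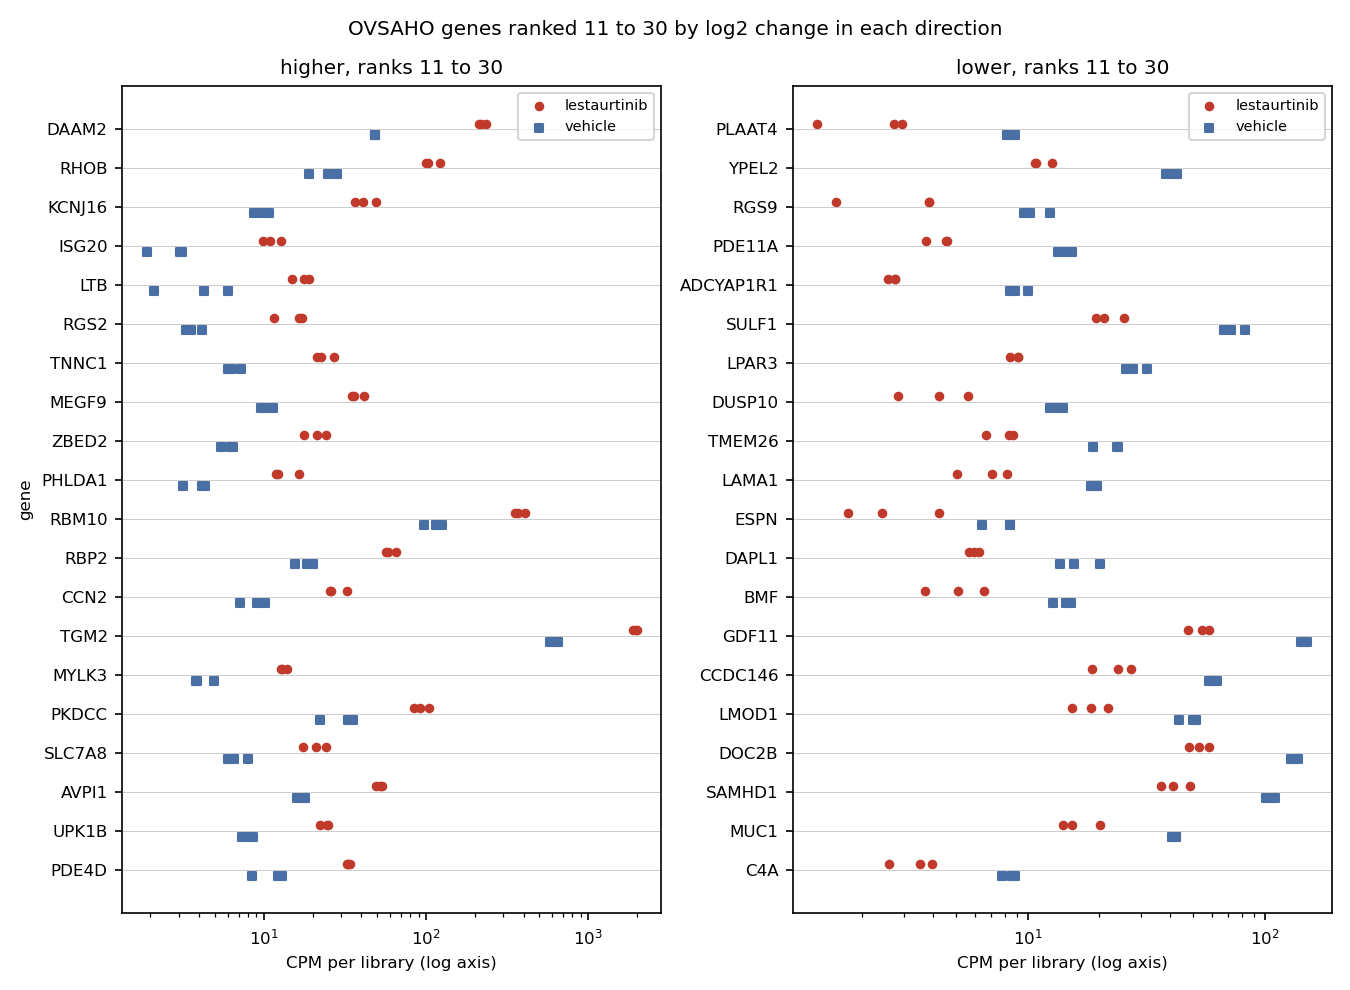
CPM in each library (log axis) of the OVSAHO genes ranked 11 to 30 by log2 change, higher with lestaurtinib in the left panel and lower in the right panel, lestaurtinib (circles) above vehicle (squares) for each gene. In the left panel TGM2 has the most reads, 1899.7 to 1999 CPM with lestaurtinib, and in the right panel GDF11, at 47.5 to 58.2 CPM with lestaurtinib and 143 to 151 CPM with vehicle, shows libraries of each group close together.

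Genes of protein export rose together and by small amounts. Of 33 ER chaperones and disulfide isomerases, 19 rose and none fell, with a median of 0.29 (with any 1 library left out, 15 to 17 rose and 0 fell). HSPA5 (chromosome 9, 125234848 to 125241387), the ER chaperone BiP, was at 730.3, 659 and 682 CPM in the lestaurtinib libraries, against 467, 497 and 480.0 CPM in the vehicle libraries. HYOU1, a large ER chaperone, changed by 0.50 ± 0.05, the disulfide isomerase genes PDIA4 and P4HB by 0.48 ± 0.05 and 0.55 ± 0.06, and the calcium-binding chaperone gene CALR by 0.31 ± 0.04. CRELD2, a small ER-resident protein that rises in ER stress, had the largest change of the list, at 22.5, 30.5 and 30.7 CPM in the lestaurtinib libraries, against 16.97, 13.3 and 11.8 CPM in the vehicle libraries (0.99 ± 0.16). SIL1, the exchange factor of BiP, was at 0.15 ± 0.12 and XBP1 at 0.16 ± 0.07, neither past the threshold.

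The same direction was seen on either side of folding. Of 64 genes of ER protein entry, glycosylation and ER-associated degradation, 18 rose and 1 fell, with a median of 0.16 (with any 1 library left out, 12 to 17 rose and 1 to 3 fell, the number that fell being 2 without lestaurtinib replicate 1 or 3 or vehicle replicate 2 and 3 without vehicle replicate 3). They included the translocation channel genes SEC61A1 (609.5 ± 23.7 CPM with lestaurtinib and 489 ± 1.64 CPM with vehicle) and SEC61B (0.51), the signal receptor gene SRPRA (0.36), the oligosaccharyltransferase gene RPN1 (0.25) and the degradation genes EDEM2 (0.48) and HERPUD1 (60.1 ± 2.17 CPM with lestaurtinib and 38.2 ± 3.32 CPM with vehicle). GANAB, the glucosidase that trims new glycans, was the member that fell, by 0.17. Of 57 genes of COPII, COPI and Golgi transport, 22 rose and none fell, with a median of 0.16 (with any 1 library left out, 15 to 20 rose and 0 fell). Among them were the cargo receptor genes TMED10 and MCFD2 (0.33 and 0.36), the COPII coat genes SEC13 and SEC23B (0.34 and 0.35), the retrieval receptor genes KDELR2 and KDELR3 (0.30 and 0.57) and the transcription factor gene CREB3L2 (163 ± 1.24 CPM with lestaurtinib and 116 ± 11.1 CPM with vehicle), which is known to drive secretory genes. With upper-quartile scaling the counts were 16, 13 and 18 that rose and 0, 4 and 0 that fell, for chaperones, entry and transport in turn.

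The ERSE, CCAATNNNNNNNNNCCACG, was rare: 14 of 10736 promoters (0.13%) held it on either strand. Of 30 ER chaperone genes with a promoter in the table, 7 held it. HSPA5, HSP90B1, CALR and CRELD2 of these rose, and CANX, XBP1 and ERO1B did not pass. The stretches around the motif of HSPA5, at chr9:125241351-125241450 on the minus strand, and of CRELD2, at chr22:49918513-49918612 on the plus strand, are shown with the motif in capitals, the CRELD2 copy reading in reverse complement.
HSPA5: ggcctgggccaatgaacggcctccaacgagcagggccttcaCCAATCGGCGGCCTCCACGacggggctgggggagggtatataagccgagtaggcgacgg
CRELD2: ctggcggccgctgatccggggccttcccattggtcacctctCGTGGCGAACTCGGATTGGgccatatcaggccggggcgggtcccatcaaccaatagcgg
They ended 47 bases before the RefSeq start in HSPA5 and 61 before it in CRELD2.

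Other arms of protein quality control moved less. Of 45 cytosolic chaperones and heat shock genes, 11 rose and none fell, with a median of 0.09 (with any 1 library left out, 7 to 9 rose and 0 fell, the number that rose being 7 without lestaurtinib replicate 2 or 3), and 8 rose and 2 fell with upper-quartile scaling. HSPA2, an HSP70 abundant in testis, was at 67.5, 71.4 and 78.7 CPM in the lestaurtinib libraries, against 35.3, 22.0 and 30.7 CPM in the vehicle libraries, and the cochaperone gene BAG1 at 157 ± 3.50 CPM with lestaurtinib and 106 ± 9.21 CPM with vehicle. HSP90AA1 and HSP90AB1 were at -0.02 ± 0.05 and -0.01 ± 0.05. Of 46 ATF4 targets, amino acid synthesis and tRNA synthetase genes, 8 rose and 5 fell. WARS1, the tryptophan tRNA synthetase, rose by 0.56 and the cationic amino acid transporter gene SLC7A1 by 0.69, while PSAT1 of serine synthesis fell by 0.47 and ASNS, the asparagine synthetase, by 0.25. The ER stress genes DDIT3 and ATF3 were at -0.33 ± 0.12 and -0.36 ± 0.20, neither past the threshold. Of 38 proteasome subunit genes, 3 rose and none fell (with any 1 library left out, 0 to 2 rose and 0 fell, the number that rose being 0 without lestaurtinib replicate 3 and 1 without vehicle replicate 2), and 1 rose and 1 fell with upper-quartile scaling.

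Cholesterol synthesis genes rose as well, through most of its steps. Of 28 genes of the pathway and its SREBP2 control, 17 rose and none fell, with a median of 0.34 (with any 1 library left out, 15 to 17 rose and 0 fell). Early in the pathway, MVK, the mevalonate kinase, was at 25.0, 26.2 and 28.8 CPM in the lestaurtinib libraries, against 12.6, 13.2 and 12.6 CPM in the vehicle libraries, and ACAT2, which joins acetyl units, at 80.0 ± 5.03 CPM with lestaurtinib and 46.6 ± 7.18 CPM with vehicle. Late in it, the squalene-forming FDFT1 changed by 0.55 ± 0.05, LSS by 0.54 ± 0.08 and DHCR7 by 0.63 ± 0.07. The feedback gene INSIG1 was at 53.4 ± 3.26 CPM with lestaurtinib and 32.7 ± 4.04 CPM with vehicle. The transcription factor gene SREBF2 was at 0.18 ± 0.07 and did not pass. The sterol response element, searched as TCACNCCAC on both strands, was in 1 of the 22 promoters of the list in the table and in 120 of 10736 (1.12%) of all.

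Fatty acid genes were divided. Of 51 genes, 9 rose and 8 fell, with a median of 0.02 (with any 1 library left out, 7 to 10 rose and 4 to 7 fell, the number that fell being 4 without vehicle replicate 2 and 5 without lestaurtinib replicate 1 or 3). SCD, which makes monounsaturated fatty acids, was at 1251, 1259 and 1225 CPM in the lestaurtinib libraries, against 721, 784 and 771 CPM in the vehicle libraries. ACSL4, which activates polyunsaturated fatty acids, changed by 0.59 ± 0.05, the fatty acid binding protein gene FABP5 by 0.76 ± 0.07 and PDK4, which diverts pyruvate from oxidation, by 1.32 ± 0.20. CPT1A, the gate of mitochondrial fatty acid oxidation, went down by 0.38 on the log2 scale. FASN, the fatty acid synthase, was at 0.39 ± 0.17 and did not pass. Of 25 glycolysis genes, 8 rose and none fell (with any 1 library left out, 5 to 7 rose and 0 to 1 fell, the number that rose being 5 without lestaurtinib replicate 3 or vehicle replicate 2 or 3, and the number that fell being 1 without lestaurtinib replicate 3 or vehicle replicate 2), with LDHA at 1425 ± 81.5 CPM with lestaurtinib and 1059 ± 51.1 CPM with vehicle, ENO1 at 3610.2 ± 76.1 CPM with lestaurtinib and 2953 ± 55.3 CPM with vehicle and PFKFB4, a regulator of glycolytic flux, at 0.83 ± 0.15. GAPDH and PGK1 were at 0.05 ± 0.03 and 0.03 ± 0.06. Of 64 respiratory chain genes, 7 rose and 1 fell, against 4 and 5 with upper-quartile scaling (with any 1 library left out, 2 to 6 rose and 0 to 4 fell, the number that rose being 2 without lestaurtinib replicate 3 or vehicle replicate 3 and 4 without vehicle replicate 2, and the number that fell being 0 without vehicle replicate 2 and 3 without vehicle replicate 3 and 4 without vehicle replicate 1).

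Interferon-related genes fell at several levels of the pathway. Of 39 interferon-induced effectors, 16 fell and 3 rose, with a median of -0.42 (with any 1 library left out, 1 to 3 rose and 11 to 15 fell, the number that rose being 1 without lestaurtinib replicate 3 or vehicle replicate 3). IFIT1, which binds foreign RNA, was at 0, 1.46 and 1.44 CPM in the lestaurtinib libraries, against 4.74, 5.56 and 9.38 CPM in the vehicle libraries. MX1, an antiviral GTPase, was at 2.76, 2.86 and 3.40 CPM in the lestaurtinib libraries, against 6.42, 6.77 and 7.48 CPM in the vehicle libraries. IFITM1, a membrane barrier against viral entry, was at 135, 122.99 and 130.5 CPM in the lestaurtinib libraries, against 209, 218 and 203 CPM in the vehicle libraries, and RNF213, a large ubiquitin ligase, at 114 ± 6.78 CPM with lestaurtinib and 165 ± 4.79 CPM with vehicle. IFIT2 and IFIT3 changed by -1.96 ± 0.32 and -0.73 ± 0.17. ISG15, a ubiquitin-like modifier often taken as a marker of the response, was at 0.24 ± 0.23, OAS3 at 0.03 ± 0.17 and BST2 at -0.13 ± 0.09, none past the threshold. ISG20 moved against the list, as described above.

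Upstream genes fell as well. Of 33 sensors and regulators, 11 fell and 3 rose, with a median of -0.20 (with any 1 library left out, 2 to 3 rose and 7 to 11 fell, the number that fell being 7 without lestaurtinib replicate 3). DTX3L and PARP9, partners in ADP-ribosylation of chromatin, moved together: DTX3L was at 36.3 ± 0.801 CPM with lestaurtinib and 58.6 ± 0.459 CPM with vehicle, and PARP9 at 14.8 ± 1.37 CPM with lestaurtinib and 27.2 ± 3.13 CPM with vehicle. PARP14 changed by -0.47 ± 0.09 and TRIM25, a ubiquitin ligase of RNA sensing, by -0.36 ± 0.07. The feedback protease gene USP18 changed by -0.61 ± 0.13 and NLRC5, the activator of class I genes, by -1.05 ± 0.22, at 2.02 ± 0.410 CPM with lestaurtinib and 4.19 ± 0.531 CPM with vehicle. STAT2 and IRF9, which act together in an interferon-activated complex, were at -0.20 ± 0.08 and -0.39 ± 0.18 and did not pass. IRF3 and IFNGR1 went up, by 0.44 and 0.36.

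Antigen presentation genes split within one pathway. Of 26, 6 rose and 6 fell (with any 1 library left out, 4 to 6 rose and 4 to 6 fell). TAP1 (chromosome 6, 32845209 to 32853971), a subunit of the peptide pump of the ER membrane, was at 55.0, 50.2 and 51.0 CPM in the lestaurtinib libraries, against 24.0, 22.6 and 28.6 CPM in the vehicle libraries. PSMB9, a subunit of the immunoproteasome encoded beside it, was at 26.4, 20.2 and 23.4 CPM in the lestaurtinib libraries, against 13.1, 13.5 and 9.85 CPM in the vehicle libraries, and TAP2, the partner of TAP1, at 76.0 ± 2.38 CPM with lestaurtinib and 56.4 ± 2.35 CPM with vehicle. The ER aminopeptidases that trim the peptides fell, with ERAP1 at 34.0 ± 0.713 CPM with lestaurtinib and 49.4 ± 0.403 CPM with vehicle, and ERAP2 at 16.9 ± 0.806 CPM with lestaurtinib and 26.5 ± 1.996 CPM with vehicle. CD74, the class II invariant chain, was at 1.06 ± 0.461 CPM with lestaurtinib and 2.62 ± 0.247 CPM with vehicle, a fall that did not pass in limma-voom (adjusted p = 0.056) or in a fit of the 6 OVSAHO libraries alone (0.075). Of the same list, B2M fell by 0.20 (edgeR adjusted p = 0.024) and HLA-E rose by 0.17 (0.044). The class I heavy chain genes HLA-B and HLA-C were at 0.13 ± 0.10 and 0.16 ± 0.07, and did not pass. These genes are polymorphic and alike, so reads can be split between them.

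The promoters of both directions can hold the same motif. The ISRE core GAAANNGAAA was present on either strand in 284 of 10736 promoters (2.65%). It was present in 24 of 33 effector promoters in the table, in 9 of 22 promoters of the antigen presentation list and in 5 of 23 of the sensors and regulators. Of the 24 effector genes, 9 fell, 1 rose and 14 did not pass, and of the 9 antigen presentation genes, 3 fell, 2 rose and 4 did not pass. Over all genes with at least 1 CPM, 37 of 682 that fell (5.43%), 13 of 984 that rose (1.32%) and 204 of 8406 that did not pass (2.43%) held it. The stretches shown, with the motif in capitals, belong to IFIT1, IFIT3 and TNFSF10, which fell, and to ISG20 and TAP1, which rose. They lie at chr10:89392462-89392561, chr10:89327796-89327895 and chr15:88638902-88639001 on the plus strand and at chr3:172523563-172523662 and chr6:32853784-32853883 on the minus strand.
IFIT1: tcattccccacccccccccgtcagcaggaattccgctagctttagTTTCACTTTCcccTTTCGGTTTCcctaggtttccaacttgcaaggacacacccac
IFIT3: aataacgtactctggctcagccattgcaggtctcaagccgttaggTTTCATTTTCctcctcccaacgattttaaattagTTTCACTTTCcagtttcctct
TNFSF10: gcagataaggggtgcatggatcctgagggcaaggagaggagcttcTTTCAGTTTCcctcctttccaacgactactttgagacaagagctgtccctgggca
ISG20: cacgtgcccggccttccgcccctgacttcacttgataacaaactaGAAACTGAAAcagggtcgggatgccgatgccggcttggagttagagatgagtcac
TAP1: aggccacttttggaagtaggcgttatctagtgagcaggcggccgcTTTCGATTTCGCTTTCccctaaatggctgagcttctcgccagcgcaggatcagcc
IFIT1, IFIT3 and TAP1 carried the motif as a pair, overlapping in TAP1, and TNFSF10 and ISG20 as a single copy.

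NF-kB genes rose while interferon genes fell. Of 41 genes of the NF-kB pathway and its feedback, 19 rose and 1 fell, with a median of 0.35 (with any 1 library left out, 15 to 17 rose and 1 to 2 fell, the number that fell being 2 without vehicle replicate 1). The subunit genes NFKB2, RELB and RELA changed by 0.89 ± 0.07, 0.61 ± 0.11 and 0.35 ± 0.07. Inhibitors moved with them: NFKBIA was at 63.4 ± 2.99 CPM with lestaurtinib and 48.5 ± 4.17 CPM with vehicle, NFKBIE at 53.7 ± 7.71 CPM with lestaurtinib and 30.3 ± 2.35 CPM with vehicle and TNFAIP3, which removes ubiquitin from the pathway, at 23.5 ± 4.77 CPM with lestaurtinib and 15.5 ± 1.08 CPM with vehicle. IER3, an early response gene, was at 99.1, 84.9 and 94.9 CPM in the lestaurtinib libraries, against 38.6, 30.1 and 33.7 CPM in the vehicle libraries. ICAM1, a common surface target, was at 0.53 ± 0.26 and did not pass. Of 34 chemokine, cytokine and cytokine receptor genes, 7 rose and 6 fell. The ligand gene LIF was at 46.3 ± 2.71 CPM with lestaurtinib and 23.5 ± 1.79 CPM with vehicle and TNF at 20.1 ± 2.28 CPM with lestaurtinib and 11.6 ± 1.78 CPM with vehicle, while the receptor genes IL1R1 and OSMR fell by 0.93 and 0.37.

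Secreted defence genes of another kind fell. Of 32 complement, coagulation and serpin genes, 12 fell and 4 rose, with a median of -0.37 (with any 1 library left out, 4 to 5 rose and 10 to 12 fell). CFB (chromosome 6, 31945944 to 31952084), complement factor B, was at 61.4, 74.9 and 64.3 CPM in the lestaurtinib libraries, against 161, 173 and 162 CPM in the vehicle libraries. C3, the hub of the cascade, was at 274, 296 and 245 CPM in the lestaurtinib libraries, against 368, 359 and 390.4 CPM in the vehicle libraries, and C1R, its classical starter, at 33.7 ± 2.48 CPM with lestaurtinib and 62.5 ± 3.37 CPM with vehicle. SERPINE2, a protease inhibitor also called nexin, was at 56.3, 63.1 and 64.4 CPM in the lestaurtinib libraries, against 135, 148 and 149 CPM in the vehicle libraries. CLU, the chaperone clusterin, changed by -0.33 ± 0.06. TFPI2, an inhibitor of clotting proteases, and CD55, which shields cells from complement, moved up, by 1.36 and 0.79.

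Müllerian and serous lineage genes fell in larger number than they rose. Of 31, 14 fell and 4 rose, with a median of -0.34 (with any 1 library left out, 1 to 5 rose and 12 to 14 fell, the number that rose being 1 without lestaurtinib replicate 2 or vehicle replicate 2 or 3 and 2 without lestaurtinib replicate 1 or 3). This list, like the others, was drawn up with earlier results of these samples known, so its direction is no independent evidence. The kallikrein genes KLK6, KLK7 and KLK8 were at -0.66 ± 0.10, -1.14 ± 0.15 and -0.76 ± 0.10. MECOM, a transcription factor gene amplified in many serous tumours, was at 278, 265 and 250.03 CPM in the lestaurtinib libraries, against 354, 355 and 381 CPM in the vehicle libraries. CP, the copper carrier ceruloplasmin, was at 22.1 ± 1.66 CPM with lestaurtinib and 49.1 ± 1.12 CPM with vehicle. SOX17, ESR1 and EPCAM were at -0.04 ± 0.35, 0.02 ± 0.10 and 0.08 ± 0.09, none past the threshold. PAX8 fell by 0.22. The serous marker MSLN rose by 0.53 (edgeR adjusted p = 0.021), at 131 ± 12.7 CPM with lestaurtinib and 90.8 ± 10.4 CPM with vehicle. EMX2 fell by 0.41 (edgeR adjusted p = 0.028), though not in DESeq2 (0.64) or without lestaurtinib replicate 1 (0.061) or 2 (0.073) or vehicle replicate 3 (0.07).

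Of 9 keratin genes with at least 1 CPM, 5 rose and none fell, with a median of 0.79 (with any 1 library left out, 4 to 5 rose and 0 fell). KRT18 was at 704, 709 and 679.6 CPM in the lestaurtinib libraries, against 332, 335 and 322 CPM in the vehicle libraries, KRT7 at 419.9 ± 20.9 CPM with lestaurtinib and 242 ± 11.9 CPM with vehicle and KRT8 at 1319.5 ± 76.0 CPM with lestaurtinib and 813 ± 64.2 CPM with vehicle, all of them keratins of simple epithelia. KRT19, which is also found there, was at 0.24 ± 0.22 and did not pass. The other keratin genes that rose were low: KRT4 (2.26 ± 0.49), at 6.26 ± 1.80 CPM with lestaurtinib and 1.30 ± 0.370 CPM with vehicle, and KRT80 (0.79 ± 0.22). KRT8 and KRT18 are partners in 1 filament and lie side by side on chromosome 12, with 6.0% of the exon length of KRT8 shared with KRT18. Cadherin genes showed no common direction. CDH2, the neural cadherin, was at 87.4, 91.3 and 87.5 CPM in the lestaurtinib libraries, against 181, 187 and 171 CPM in the vehicle libraries, and CDH6 at 284 ± 2.59 CPM with lestaurtinib and 403 ± 16.8 CPM with vehicle, while CDH1, the epithelial cadherin, was at 0.23 ± 0.11 and did not pass, and CDH5 rose, as given above. JUP, the plakoglobin of desmosomes and adherens junctions, was at 338, 356 and 395 CPM in the lestaurtinib libraries, against 189.6, 152 and 159 CPM in the vehicle libraries. VIM, the mesenchymal filament, was at 568, 552 and 549.7 CPM in the lestaurtinib libraries, against 831, 890.5 and 825 CPM in the vehicle libraries, with 20% of its exon length shared with VIM-AS1. Of 25 tight junction and claudin genes, 5 fell and 2 rose (with any 1 library left out, 0 to 2 rose and 3 to 5 fell, the number that rose being 0 without lestaurtinib replicate 3 or vehicle replicate 2 or 3 and 1 without lestaurtinib replicate 1 or 2, and the number that fell being 3 without lestaurtinib replicate 2 or 3 or vehicle replicate 2), PARD6B, a polarity gene, being the lowest in adjusted p at -0.60 ± 0.11.

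Actin-binding and adhesion genes rose in greater number than they fell. Of 58 actin, myosin and tropomyosin genes, 17 rose and 5 fell, with a median of 0.08 (with any 1 library left out, 14 to 16 rose and 3 to 6 fell, the number that fell being 3 without lestaurtinib replicate 1 or vehicle replicate 2), and 16 and 8 with upper-quartile scaling. CALD1 (caldesmon) was at 364, 335 and 326 CPM in the lestaurtinib libraries, against 149.6, 131 and 171 CPM in the vehicle libraries and TAGLN (transgelin) at 78.8, 95.4 and 86.1 CPM in the lestaurtinib libraries, against 29.99, 38.9 and 34.1 CPM in the vehicle libraries. The tropomyosin genes TPM1, TPM2 and TPM4 changed by 0.50 ± 0.05, 0.50 ± 0.07 and 0.39 ± 0.04, and ACTB by 0.48 ± 0.05. Of 46 integrin and focal adhesion genes, 14 rose and 2 fell, with a median of 0.18 (with any 1 library left out, 10 to 15 rose and 1 to 3 fell, the number that fell being 1 without lestaurtinib replicate 2 or 3 or vehicle replicate 3). CSRP1, a LIM protein of actin bundles, was at 984, 978 and 1003 CPM in the lestaurtinib libraries, against 411, 398 and 387 CPM in the vehicle libraries. The integrin genes ITGB5 and ITGA3 changed by 0.67 ± 0.06 and 0.54 ± 0.07. ITGB1 and PTK2, the focal adhesion kinase gene, were at 0.02 ± 0.05 and -0.06 ± 0.07. Of 27 YAP-TEAD targets, 9 rose and 2 fell, with a median of 0.14 (with any 1 library left out, 8 to 9 rose and 2 to 3 fell), CRIM1 at 199 ± 5.48 CPM with lestaurtinib and 114 ± 4.59 CPM with vehicle and MYOF, which moved down, at 227 ± 12.95 CPM with lestaurtinib and 356 ± 19.7 CPM with vehicle.

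Matrix genes changed in both directions. Of 50 basement membrane and matrix genes, 13 rose and 7 fell (with any 1 library left out, 8 to 16 rose and 6 to 9 fell, the number that rose being 8 without lestaurtinib replicate 3 or vehicle replicate 3), and 10 and 10 with upper-quartile scaling. Of the laminin chains that anchor epithelia, LAMA3 was at 625, 607 and 586 CPM in the lestaurtinib libraries, against 257, 272 and 259.9 CPM in the vehicle libraries and LAMB3 at 10.6 ± 1.02 CPM with lestaurtinib and 5.76 ± 0.830 CPM with vehicle. LAMA1 fell, as given above, and LAMC1, LAMB2 and LAMA5 were at -0.14 ± 0.05, 0.00 ± 0.07 and 0.48 ± 0.18, none past the threshold. TIMP3, a matrix-bound inhibitor of proteases, was at 469, 453 and 464 CPM in the lestaurtinib libraries, against 163, 166 and 170.3 CPM in the vehicle libraries. COL12A1 and TNC (tenascin C) changed by 0.96 ± 0.07 and 0.80 ± 0.06, and THBS1 (thrombospondin) and FN1 (fibronectin), both low, by -1.14 ± 0.16 and -1.16 ± 0.17. FN1 did not pass in limma-voom (adjusted p = 0.099).

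Synaptic genes fell, in a line of epithelial origin. Of 25 glutamate receptor and synaptic scaffold genes, 10 fell and none rose, with a median of -0.07 (with any 1 library left out, 0 to 1 rose and 7 to 10 fell, the number that rose being 1 without lestaurtinib replicate 2). Besides DLGAP3, GRIN2A, GRIK2 and CTNNA2 of the first ranks (the CTNNA2 call was not held in DESeq2, with an adjusted p of 0.12), HOMER2, a scaffold of glutamate receptors, was at 17.2, 20.7 and 16.1 CPM in the lestaurtinib libraries, against 33.5, 29.3 and 32.0 CPM in the vehicle libraries, and NLGN4X, a synaptic adhesion gene, at 3.81 ± 0.307 CPM with lestaurtinib and 8.18 ± 3.57 CPM with vehicle. CACNG4, an accessory subunit of AMPA receptors, was at 1.05 ± 0.478 CPM with lestaurtinib and 5.88 ± 1.14 CPM with vehicle. DLG1, DLG4, HOMER1 and SHANK3 were at -0.10 ± 0.07, 0.27 ± 0.23, 0.02 ± 0.13 and 0.13 ± 0.29, and did not pass. Of 34 ion channel genes, 8 rose and 5 fell (with any 1 library left out, 4 to 7 rose and 2 to 4 fell, the number that rose being 4 without lestaurtinib replicate 1 or 3 or vehicle replicate 2 or 3 and 5 without lestaurtinib replicate 2, and the number that fell being 2 without vehicle replicate 2 or 3 and 3 without lestaurtinib replicate 1, 2 or 3), and 5 and 6 with upper-quartile scaling. SCN8A, a neuronal sodium channel, was at 9.14 ± 2.19 CPM with lestaurtinib and 19.5 ± 1.90 CPM with vehicle, and PIEZO1, a channel opened by membrane stretch, at 66.4 ± 12.4 CPM with lestaurtinib and 43.5 ± 8.595 CPM with vehicle.

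Guidance genes moved in both directions. Of 39 axon guidance genes, 7 rose and 7 fell (with any 1 library left out, 3 to 9 rose and 6 to 8 fell, the number that rose being 3 without lestaurtinib replicate 2 or 3 or vehicle replicate 2 or 3). The ephrin gene EFNA1 was at 101, 110.3 and 109.7 CPM in the lestaurtinib libraries, against 56.7, 50.3 and 46.7 CPM in the vehicle libraries and the semaphorin gene SEMA7A at 75.8 ± 2.17 CPM with lestaurtinib and 39.4 ± 7.89 CPM with vehicle. The receptor gene ROBO1 was at 27.3 ± 2.48 CPM with lestaurtinib and 45.3 ± 4.59 CPM with vehicle. Its ligand SLIT2 was at 84.5 ± 8.18 CPM with lestaurtinib and 146 ± 2.29 CPM with vehicle, with a call in edgeR (adjusted p = 0.0026) and not in DESeq2 (0.2). The receptor genes NEO1 and SEMA4D (a ligand as well as a receptor) changed by -0.53 ± 0.08 and -0.74 ± 0.13. Among WNT genes, LGR5, a receptor of stem cells, was at 122, 112 and 116 CPM in the lestaurtinib libraries, against 248, 255 and 256 CPM in the vehicle libraries, and FZD4 at 31.8 ± 3.42 CPM with lestaurtinib and 55.3 ± 5.72 CPM with vehicle. AXIN2, a target that reports WNT activity, was at 0.17 ± 0.28 and did not pass. HES1, a NOTCH target, was at 19.4, 18.1 and 20.7 CPM in the lestaurtinib libraries, against 6.29, 6.46 and 7.22 CPM in the vehicle libraries, while HEYL and NRARP were at -0.31 ± 0.57 and 0.28 ± 0.25. SMAD3, of the TGF-beta pathway, was at 143, 137 and 144 CPM in the lestaurtinib libraries, against 83.7, 77.7 and 82.5 CPM in the vehicle libraries.

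Transcripts of kinases bound by this class of compound changed in few members. Of 37 kinases bound by lestaurtinib or related indolocarbazoles, 5 rose and 3 fell, close to the shares over all genes, with a median of 0.06 (with any 1 library left out, 3 to 5 rose and 2 to 3 fell, the number that rose being 3 without lestaurtinib replicate 3 or vehicle replicate 2 or 3). RPS6KA2, a ribosomal S6 kinase, was at 34.9 ± 4.47 CPM with lestaurtinib and 16.9 ± 1.97 CPM with vehicle and PRKCE, a protein kinase C, at 18.1 ± 0.602 CPM with lestaurtinib and 31.6 ± 2.82 CPM with vehicle. JAK2 was at -0.50 ± 0.32 and JAK1 at -0.12 ± 0.05, neither past the threshold. Of 29 JAK-STAT components and feedback genes, 2 rose and 3 fell (with any 1 library left out, 0 to 4 rose and 1 to 3 fell, the number that rose being 0 without vehicle replicate 2 and 1 without vehicle replicate 3 and 4 without vehicle replicate 1, and the number that fell being 1 without vehicle replicate 3). STAT3 was at 81.8, 83.9 and 80.4 CPM in the lestaurtinib libraries, against 108, 106 and 107 CPM in the vehicle libraries. The 2 that rose were the JAK family kinase gene TYK2, by 0.30 ± 0.08, and PIM3, by 0.56 ± 0.17, neither call being held without vehicle replicate 2. The feedback gene SOCS3 was at -0.14 ± 0.11, PIM1 at 0.14 ± 0.13 and CISH at -0.62 ± 0.34.

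Feedback genes of the MAP kinases moved in both directions. Of 27, 9 rose and 4 fell, with a median of 0.26 (with any 1 library left out, 8 to 10 rose and 3 to 4 fell). SPRY2, a brake on receptor signalling, was at 152, 147 and 148 CPM in the lestaurtinib libraries, against 60.2, 62.3 and 60.6 CPM in the vehicle libraries, and DUSP5, a nuclear ERK phosphatase, at 14.8 ± 1.62 CPM with lestaurtinib and 6.11 ± 2.04 CPM with vehicle. DUSP6, a cytosolic one, changed by 0.43 ± 0.10. ETV4 and ETV5, transcription factor genes that follow ERK activity, fell by 0.58 and 0.47. SPRY4 and SPRED1 were at 0.31 ± 0.15 and 0.00 ± 0.10. Of 28 receptor tyrosine kinase genes, 4 rose and 5 fell (with any 1 library left out, 2 to 4 rose and 5 fell, the number that rose being 2 without lestaurtinib replicate 3 or vehicle replicate 2 or 3), with MET at 61.2 ± 1.81 CPM with lestaurtinib and 46.6 ± 2.99 CPM with vehicle and PTK7 at 157 ± 3.76 CPM with lestaurtinib and 247 ± 16.8 CPM with vehicle.

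Proliferation genes changed by small amounts. Of 69 mitosis genes, 12 rose and 3 fell (with any 1 library left out, 6 to 12 rose and 2 to 4 fell, the number that rose being 6 without vehicle replicate 1 and 7 without lestaurtinib replicate 1 or 2 or vehicle replicate 3), the largest rise being that of ECT2, the exchange factor of cytokinesis, at 285 ± 28.1 CPM with lestaurtinib and 182 ± 12.8 CPM with vehicle. MKI67 and CCNB1 were at -0.08 ± 0.08 and 0.12 ± 0.06. Of 65 DNA replication genes, 4 rose and 7 fell (with any 1 library left out, 2 to 5 rose and 4 to 7 fell, the number that rose being 2 without lestaurtinib replicate 3, and the number that fell being 4 without lestaurtinib replicate 2 or 3 or vehicle replicate 2 or 3), and PCNA was at -0.04 ± 0.06. Of 77 cytosolic ribosomal protein genes, 11 fell and 5 rose, and 18 and 3 with upper-quartile scaling (with any 1 library left out, 2 to 5 rose and 6 to 21 fell, the number that rose being 2 without lestaurtinib replicate 3 or vehicle replicate 3 and 3 without lestaurtinib replicate 2 or vehicle replicate 2, and the number that fell being 6 without vehicle replicate 2 and 7 without lestaurtinib replicate 2 or 3 and 21 without vehicle replicate 1). Their median was -0.09, with RPL12 at -0.19 ± 0.04 and RPS16 at 0.18 ± 0.04. The RPS16 call was not held without lestaurtinib replicate 3 (edgeR adjusted p = 0.066) or vehicle replicate 3 (0.06). Many ribosomal protein genes have processed copies elsewhere in the genome that can share reads. Among 19 BCL2 family genes, 4 rose and 2 fell (with any 1 library left out, 2 to 4 rose and 2 fell, the number that rose being 2 without lestaurtinib replicate 3 or vehicle replicate 2 or 3), the death-promoting BCL2L11 (BIM) at 28.0 ± 1.46 CPM with lestaurtinib and 42.6 ± 4.57 CPM with vehicle and the protective BCL2L1 at 203 ± 8.07 CPM with lestaurtinib and 172 ± 7.93 CPM with vehicle, a call not held without vehicle replicate 3 (edgeR adjusted p = 0.063). MCL1 and BAX were at -0.13 ± 0.05 and 0.13 ± 0.11. The death-promoting genes BID and BAD rose, by 0.68 ± 0.12 and 1.44 ± 0.40. BAD was at 6.33, 6.99 and 15.3 CPM in the lestaurtinib libraries, against 5.93, 2.36 and 2.24 CPM in the vehicle libraries. Of 32 p53 targets, 4 rose and 4 fell (with any 1 library left out, 2 to 5 rose and 3 to 5 fell, the number that rose being 2 without lestaurtinib replicate 1), with CDKN1A, the cell cycle inhibitor p21, at 1.02 ± 0.534 CPM with lestaurtinib and 3.48 ± 1.35 CPM with vehicle.

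Glycosylation and transport genes included some large single changes. ST6GAL1, which adds sialic acid to N-glycans, was at 788, 807 and 774 CPM in the lestaurtinib libraries, against 285, 324 and 312 CPM in the vehicle libraries. Of the enzymes that start mucin-type glycans, GALNT2 was at 297 ± 22.4 CPM with lestaurtinib and 128 ± 11.9 CPM with vehicle and GALNT3 at 15.4 ± 0.561 CPM with lestaurtinib and 61.5 ± 5.38 CPM with vehicle, opposite in direction. SLC7A2, a carrier of arginine, was at 583, 617 and 598 CPM in the lestaurtinib libraries, against 212, 214 and 240.0 CPM in the vehicle libraries. ATP2B4, a calcium pump of the plasma membrane, was at 74.7, 71.3 and 61.3 CPM in the lestaurtinib libraries, against 153, 159 and 175 CPM in the vehicle libraries, and SLC34A2, a phosphate carrier of ovarian cancers, at 62.0 ± 2.78 CPM with lestaurtinib and 92.9 ± 1.11 CPM with vehicle. Of 20 circadian genes, 4 rose and 5 fell (with any 1 library left out, 3 to 4 rose and 4 to 5 fell). PER1 rose, as given above, while PER3 was at 20.01 ± 2.60 CPM with lestaurtinib and 37.0 ± 2.68 CPM with vehicle and NR1D2 at 33.9 ± 2.24 CPM with lestaurtinib and 52.8 ± 0.449 CPM with vehicle. BMAL1 and CLOCK were at 0.24 ± 0.19 and 0.04 ± 0.11.

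Defence against oxidants and the lysosome showed no common direction. Of 42 NRF2, glutathione and metallothionein genes, 5 rose and 7 fell (with any 1 library left out, 4 to 7 rose and 4 to 8 fell, the number that fell being 4 without vehicle replicate 2). ABCC2, an export pump for conjugates, was at 8.99, 7.83 and 7.97 CPM in the lestaurtinib libraries, against 2.57, 1.15 and 0 CPM in the vehicle libraries. TXNRD1, the thioredoxin reductase, fell by 0.45 and MGST3, a microsomal glutathione transferase, rose by 0.74. Of 60 lysosome genes, 9 rose and 5 fell (with any 1 library left out, 3 to 6 rose and 4 to 5 fell, the number that rose being 3 without vehicle replicate 3 and 5 without lestaurtinib replicate 2 or 3), GLA (alpha-galactosidase) at 65.1 ± 2.55 CPM with lestaurtinib and 39.2 ± 2.78 CPM with vehicle and SCARB2, a lysosomal membrane protein, at 77.8 ± 3.73 CPM with lestaurtinib and 99.9 ± 3.54 CPM with vehicle. LAMP1 rose by 0.29. With upper-quartile scaling 5 lysosome genes rose and 7 fell.

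Most of the remaining lists gave few calls or calls in both directions. Of 51 ribosome biogenesis and MYC target genes, 13 rose (25.5%, above the 9.69% of all genes at that level) and 3 fell (5.88%), and 7 and 5 with upper-quartile scaling. In the TGF-beta and BMP list 7 of 42 rose and 6 fell, in the WNT list 3 of 40 rose and 5 fell, and in the NOTCH list 2 of 24 rose and 1 fell. Of 25 growth factor ligand genes 4 rose and 1 fell, of 26 TNF ligand, death receptor and caspase genes 2 rose and 1 fell, and of 16 retinoid genes 3 rose and 2 fell. Of 22 desmosome and adherens junction genes 4 rose and 4 fell, as did 4 and 4 of 28 mucin and glycosylation genes. Of 46 amino acid and nutrient carriers 9 rose and 5 fell, and of 46 ion and anion carriers 7 rose and 8 fell. Of 10 peptide hormone and granule genes 2 rose and 2 fell, of 21 imprinted genes 3 rose and 2 fell, and of 8 histone genes none passed in edgeR. Of 19 small nucleolar RNA host genes 2 rose and 1 fell, and of 12 microRNA host genes 2 rose and none fell.

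Ranked by the difference in reads and not by fold, which favours long and abundant transcripts, other genes led. The 10 largest gains summed to 25504 CPM with lestaurtinib and 14028 CPM with vehicle, which is 23.5% of the summed gain of all genes that rose. MEST, an imprinted gene of the hydrolase fold family, was at 4351, 4234 and 4051 CPM in the lestaurtinib libraries, against 1480.5, 1548 and 1507 CPM in the vehicle libraries, and ACTG1, gamma actin, at 5076, 5116 and 5537 CPM in the lestaurtinib libraries, against 4348, 3974 and 4100.0 CPM in the vehicle libraries. PEG10, TGM2, ENO1, CSRP1, KRT8, SCD, ST6GAL1 and CALR were the others. The 10 largest losses summed to 70999 CPM with lestaurtinib and 82382 CPM with vehicle, 35.9% of the summed loss of all genes that fell. EEF1A1, the factor that brings tRNA to the ribosome, made up most of it, with a log2 change of -0.19 ± 0.05. Its call (edgeR adjusted p = 0.014) was lost without lestaurtinib replicate 3 (0.056) or vehicle replicate 2 (0.053), and it has many processed copies. PLPP3, a lipid phosphatase of the cell surface, was at 377, 343 and 354 CPM in the lestaurtinib libraries, against 702, 750.5 and 715 CPM in the vehicle libraries, and PSAP, the precursor of lysosomal saposins, at 1912, 1883 and 1918 CPM in the lestaurtinib libraries, against 2281, 2212 and 2215 CPM in the vehicle libraries. HNRNPA1, a splicing regulator with many processed copies, was at -0.39 ± 0.04. The others were the ribosomal protein genes RPS18, RPL5, RPL37 and RPL21, VIM and EMX2OS, the edgeR calls of RPL5, RPL37 and RPL21 (adjusted p = 0.042, 0.029 and 0.034) not being held without lestaurtinib replicate 2 or 3 or vehicle replicate 2 (0.065 to 0.13).

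Few long non-coding RNA genes changed. Of 387 with at least 1 CPM, 10 rose (2.58%) and 6 fell (1.55%), beside the 9.69% and 6.88% of all genes at that level. Their median level was 3.92 CPM, against 32 CPM for the 11768 protein-coding genes at that level, of which 1182 rose and 834 fell, and the part that level plays in these shares was not tested. LINC00473 (chromosome 6, 165924048 to 165988039), a long RNA described as induced by cAMP in other cells, was at 9.86, 9.46 and 7.86 CPM in the lestaurtinib libraries, against 0.963, 1.24 and 1.32 CPM in the vehicle libraries. LINC02904 was at 30.7, 30.9 and 29.1 CPM in the lestaurtinib libraries, against 5.76, 6.65 and 1.502 CPM in the vehicle libraries, and LINC02861 at 4.49 ± 0.413 CPM with lestaurtinib and 1.07 ± 0.984 CPM with vehicle. MIR22HG, the host transcript of miR-22, was at 17.2 ± 2.37 CPM with lestaurtinib and 10.9 ± 0.277 CPM with vehicle and LINC03040 at 14.8 ± 2.36 CPM with lestaurtinib and 8.76 ± 1.58 CPM with vehicle. A small RNA entry, MIR614, was at 4.15, 3.71 and 5.70 CPM in the lestaurtinib libraries, against 0.793, 0.975 and 1.08 CPM in the vehicle libraries; it lies within the span of the coding gene GPRC5A, a retinoid-induced receptor that rose by 1.18, and a library of messenger RNA does not measure a mature miRNA.

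Among non-coding genes that fell, EMX2OS (chromosome 10, 117484293 to 117545068), the opposite-strand partner of EMX2, was at 387, 398 and 376 CPM in the lestaurtinib libraries, against 675, 679.5 and 661 CPM in the vehicle libraries, with a call in edgeR (adjusted p = 8.0e-04) and not in DESeq2 (0.19). NEAT1, the scaffold of nuclear paraspeckles, was at 92.9, 95.8 and 83.5 CPM in the lestaurtinib libraries, against 122.7, 117 and 129 CPM in the vehicle libraries, and SNHG29, a host of small nucleolar RNAs, at 917 ± 58.3 CPM with lestaurtinib and 1073 ± 52.4 CPM with vehicle. LOC613266 was at 7.33 ± 0.585 CPM with lestaurtinib and 17.7 ± 1.90 CPM with vehicle. The RAP2C-AS1 call (-1.74 ± 0.49) was lost without vehicle replicate 3 (edgeR adjusted p = 0.071), and that of NORAD (-0.18 ± 0.05) without lestaurtinib replicate 3 (0.085) or vehicle replicate 3 (0.094). CYTOR (0.61 ± 0.17) lost its call without lestaurtinib replicate 2 (0.11), vehicle replicate 1 (0.073) or vehicle replicate 3 (0.066). RPL26L1-AS1 (0.88 ± 0.26) lost it without lestaurtinib replicate 2 (0.051) or 3 (0.17) or vehicle replicate 2 (0.12) or 3 (0.056).

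The changes of 8 ranked genes, the first 4 of ranks 11 to 30 in each direction, were set against the same treatment in MDAH-2774 cells through the interaction term of the fit of all 12 libraries. That term passed an adjusted p of 0.05 for 2268 of 13498 genes, 16.8%. DAAM2 was at 20.3 ± 2.31 CPM with lestaurtinib and 19.7 ± 3.94 CPM with vehicle in MDAH-2774, a difference of changes (OVSAHO minus MDAH-2774) of 2.15 ± 0.16 (edgeR adjusted p = 1.6e-07). KCNJ16 was at 2.15 ± 0.364 CPM with lestaurtinib and 3.36 ± 1.60 CPM with vehicle there, with a difference of 2.76 ± 0.34 (edgeR adjusted p = 3.6e-05), and ISG20 at 4.98 ± 0.624 CPM with lestaurtinib and 5.05 ± 1.11 CPM with vehicle, with 2.07 ± 0.36 (edgeR adjusted p = 7.9e-04). For these genes only the OVSAHO change passed its own test. RHOB changed alike in sign in MDAH-2774, at 35.2 ± 4.05 CPM with lestaurtinib and 11.4 ± 2.44 CPM with vehicle (1.62 ± 0.16), and its difference of 0.55 ± 0.21 did not pass (edgeR adjusted p = 0.089), though it did without vehicle replicate 3 (0.047).

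Of the genes that fell, YPEL2 was at 7.51 ± 0.414 CPM with lestaurtinib and 6.61 ± 0.697 CPM with vehicle in MDAH-2774, a difference of -2.01 ± 0.18 (edgeR adjusted p = 1.3e-06). PDE11A was at 1.14 ± 0.481 CPM with lestaurtinib and 1.12 ± 0.494 CPM with vehicle there, with -1.80 ± 0.47 (edgeR adjusted p = 0.014), and PLAAT4 at 0.569 ± 0.241 CPM with lestaurtinib and 0.308 ± 0.292 CPM with vehicle, with -2.72 ± 0.74 (edgeR adjusted p = 0.018). RGS9, under 1 CPM in every MDAH-2774 group mean, had a difference of -1.47 ± 0.61 that did not pass (edgeR adjusted p = 0.11).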

How the data were processed

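Poly(A) RNA was sequenced in 12 libraries, 3 per group in 4 groups, and the 6 OVSAHO libraries carry this account. Per the labels' protocols, RNA came from a miRNeasy kit and libraries from a TruSeq stranded mRNA kit. STAR 2.7.3a, featureCounts 2.8.2 (as listed) and hg38 are named, per the submitters' processing notes. Whether strand entered the counting is not stated there. The authors' deposited table held raw read counts for 13869 genes and RPKM values derived by the authors from them. The lowest of the genes' maximum RPKM values over libraries was 1.0005, so genes under that level were not analysed here.

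The quasi-likelihood test of edgeR 4.0.16 (R 4.3.3, limma 3.58.1) was run on the counts of the 12 libraries together, with 1 term per group and TMM factors. Of the genes, 371 were dropped by filterByExpr at a minimum count of 10, leaving 13498. Contrasts were lestaurtinib minus vehicle in OVSAHO, and the difference of that change from the one in MDAH-2774. The biological coefficient of variation was 0.125. The test was tried on simulated counts first. Replicates of a group differed beyond counting error (chi-square of 9.77 to 28.2 per degree of freedom), and none was taken as 1 library listed more than once. Alternatives were RLE and upper-quartile scaling, no filter and a filter at a mean of 1 CPM, DESeq2 1.42.0, limma-voom, the 6 libraries alone, a replicate block, leaving out each library, and a shorter promoter window.

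Named genes were ranks 11 to 30 by log2 change in each direction (past the threshold, mean of at least 5 CPM, groups without overlap, coding symbols), the 10 largest gains and losses in CPM, up to 8 non-coding genes per direction with a mean of at least 1 CPM, and up to 4 members per list with the lowest adjusted p, other members being given for their role. Some genes that meet these rules are not reported here. The 57 gene lists, the naming rule and the comparison were chosen with earlier results of these data known.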

Additional observations from a re-analysis of the deposited data

Results flagged for a closer look

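The change with lestaurtinib in OVSAHO differed from that in MDAH-2774, by edgeR's test of the difference itself, in 6 of the 8 ranked genes for which it was read, beside 16.8% of all genes tested. The difference of log2 changes, OVSAHO minus MDAH-2774, was 2.15 for DAAM2, 2.76 for KCNJ16 and 2.07 for ISG20. It was -2.72 for PLAAT4, which averaged under 1 CPM in either MDAH-2774 group, -2.01 for YPEL2 and -1.80 for PDE11A. Since these genes were ranked for a large change in OVSAHO and not in MDAH-2774, a difference in the same sense is favoured by the choice.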

How the results depend on the processing

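Over 14 alternatives, none of 321 genes of the text changed direction. Of the 259 called genes among these 321, 25 lost their call under at least 1 alternative, 19 of them on leaving out a library. With any 1 library left out, 1460 to 2184 genes passed, 746 to 1224 rose and 704 to 960 fell. The low counts of rises, 746 without lestaurtinib replicate 3 and 799 without vehicle replicate 3, moved by over 1.5 times from 1241, and the cause was not tested. Over the other alternatives 1756 (replicate block) to 2485 (DESeq2) genes passed, and 79.1% to 97.9% of the edgeR calls were shared. Upper-quartile scaling moved the share of rises among calls to 46%, against 58.4%, and DDIT3, JAK1, LAMC1 and MCL1 then passed. These genes passed in DESeq2 too, with adjusted p of 0.017 for LAMC1, 0.028 for JAK1, 0.035 for MCL1 and, after rounding, 0.05 for DDIT3. LAMC1 also passed in limma-voom (adjusted p = 0.041) and in edgeR with no filter (0.047). EGR1 passed in DESeq2 and with a filter at a mean of 1 CPM, LAMA5 in limma-voom and in the 6 libraries alone, and CANX in DESeq2 and limma-voom. Other genes passed only with a library left out (edgeR adjusted p in brackets) or did so as well. Without lestaurtinib replicate 1 they were SREBF2 (0.027), XBP1 (0.026) and LAMA5 (0.041), without replicate 2 LAMC1 (0.04) and without replicate 3 CISH (0.049). Without vehicle replicate 1 they were SREBF2 (0.039), FASN (0.02), HLA-C (0.035), DDIT3 (0.043) and LAMA5 (0.012). Without vehicle replicate 3 they were IRF9 (0.032), DDIT3 (0.038) and LAMC1 (0.039). In limma-voom 7 interferon sensors and regulators fell, against 11, and 12 matrix genes, against 7.

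The replicate numbers did not pair the libraries: deviations of same-numbered libraries correlated at -0.0599, -0.0281 and 0.00578. With the number as a replicate block, 1756 genes passed, 1045 of them higher and 711 lower. Of the 259 called genes counted above, 9 lost their call, with edgeR adjusted p of 0.062 for CD68, 0.078 for EMX2, 0.079 for FOS, 0.11 for NORAD and 0.059 for RAP2C-AS1 among them. Within the 150 bases before the start, the CRE was in 2.44% of all promoters and in 4 of the 22 of the largest increases, the ISRE in 1.27% of all and 19 of 33 effector promoters, and the ERSE in 4 of 30 chaperone promoters. Depth limits the low genes most: IFIT1, CD74 and CGA stood at about 1 CPM in one of their groups.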
